A study of Homo sapiens with 17 samples.

Results

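The genes described here are long noncoding RNAs, pseudogenes and other genes that the deposited tables name as intergenic or antisense transcripts or by the genomic clone they lie on. A gene was a member when its symbol began with RP plus digits and a hyphen, with AC, AL or AP plus digits and a dot, with CTA-, CTB-, CTC-, CTD- or LINC, or ended in -AS1, -AS2 or -IT1. The 4 tables together list 1400 genes, and 118 of these, or 8.43%, were members. The symbol rule found 121 genes, and AC002456.2, RP11-887P2.1 and RP11-736K20.5 were left out. Each of these 3 stands in 3 or 4 tables and for both targets, so leaving them out lowers the members' counts across tables.

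PC3 is an established human prostate cancer cell line. Early passage cells were harvested 7 days after infection with a virus carrying a short hairpin RNA (shRNA). MED25, a subunit of the Mediator complex, was targeted with the lentiviral shRNAs MED25 A and MED25 B, and ETV4, an ETS-family transcription factor, with the retroviral shRNAs ETV4 A and ETV4 B. Each shRNA had 3 libraries. Of the controls, 3 libraries carried a lentiviral luciferase shRNA and 2 a retroviral control shRNA, per the labels' protocols, while the series design text speaks of an empty vector. Each table gives the authors' log2 ratio per gene for 1 shRNA against the control of its virus, read here as knockdown over control, and lists only genes that were at least 1.5-fold lower. Values per library were not analysed here, so no spread between replicates, level or depth can be given, no difference below was tested, and markers of PC3 cells could not be checked. Absence from a table does not show that a gene was unchanged.

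Long noncoding RNAs are transcripts without a long conserved reading frame. Those in intervals between genes are annotated as lincRNA, and those on the strand opposite to another gene as antisense. Divergent transcripts (names ending in -DT) start close to a coding gene and run away from it. Some noncoding transcripts are hosts whose introns or exons hold small RNAs such as snoRNAs or microRNAs. Processed pseudogenes are copies of spliced mRNAs pasted into the genome, so short reads can fit both the copy and the parent gene. Mediator links transcription factors to RNA polymerase II, which also transcribes most long noncoding RNAs.

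MED25 A listed 55 members, MED25 B 31, ETV4 A 51 and ETV4 B 5. They were 7.00%, 8.29%, 10.3% and 5.10% of the 786, 374, 495 and 98 genes in these tables. The targeted genes were in their own tables, with MED25 at 51.6% and 30.5% of control for MED25 A and B, and ETV4 at 26.1% and 15.8% for ETV4 A and B, in the authors' deposited tables. With ETV4 A the list of members, like the whole table, was longer than with ETV4 B, although more of the target transcript remained. In these bulk samples a change in the makeup of the culture and a change in RNA per cell cannot be told apart.

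Within these lists, cut at 1.5-fold, members had medians close to those of all listed genes, members included. The cut narrows both, so this does not show how far such genes were lowered as a class. The median log2 ratio of members was −0.83 with MED25 A, −0.79 with MED25 B, −0.83 with ETV4 A and −0.77 with ETV4 B in the authors' deposited tables. Over all listed genes the medians were −0.78, −0.77, −0.79 and −0.77 in the same authors' deposited tables. At least 2-fold decreases were seen in 15 of 55 members with MED25 A, where 24.0% of all listed genes were lowered that far. With MED25 B they were seen in 8 of 31 members (20.1% of all listed genes), with ETV4 A in 14 of 51 (23.2%) and with ETV4 B in 2 of 5 (20.4%). With the first 3 shRNAs these shares, 27.3%, 25.8% and 27.5%, lie near those of all listed genes, and with ETV4 B there were only 5 members. The deposited tables also carry a score made from the authors' adjusted p, on a scale not given in the sources used here, with a minimum just above 20. The median score of members was 36.2, 32.0, 39.1 and 44.0 in the same order of tables, against 67.6, 63.4, 63.6 and 66.7 for all listed genes in the authors' deposited tables, so the members were nearer to the minimum for listing.

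**Figure D1:**
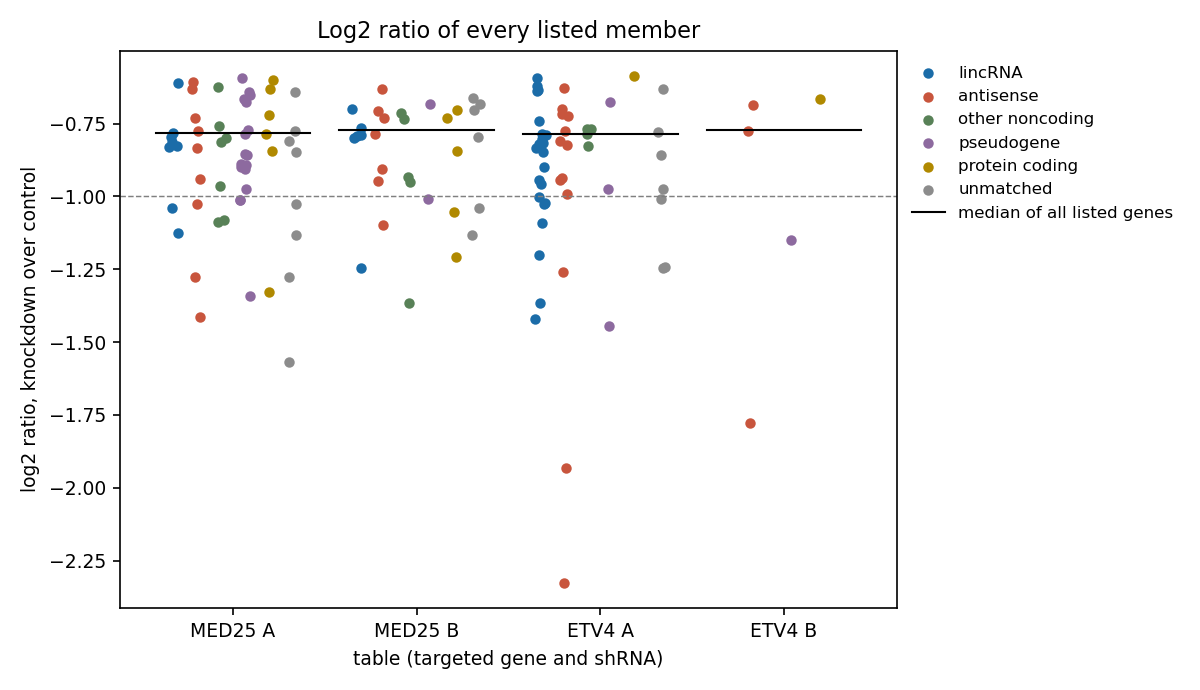
Each point is 1 member in 1 table, with its log2 ratio of knockdown over control on the vertical axis and the table on the horizontal axis, coloured by annotated type. Black lines are medians of all listed genes, and the dashed line marks a 2-fold decrease. The 2 lowest points are antisense genes with ETV4 A, at −2.32 and −1.93.

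The kinds of member differed between the tables. By Ensembl identifier, 100 of the 118 members were found in GENCODE release 29. It types 34 as lincRNA, 26 as antisense, 20 as pseudogenes of several kinds, 11 as other noncoding RNA and 9 as protein coding, and 18 were not matched. Of all 1400 listed genes, 864 (61.7%) were listed for MED25 alone, 393 (28.1%) for ETV4 alone and 143 (10.2%) for both. Of the 34 lincRNAs, 21 were listed for ETV4 alone, 11 for MED25 alone and 2 for both. Of the 20 pseudogenes, 17 were listed for MED25 alone, 2 for ETV4 alone and 1 for both. Over all 39 listed pseudogenes, members or not, these counts were 32, 5 and 2. Of the 26 antisense genes, 12 were listed for MED25 alone, 11 for ETV4 alone and 3 for both. Beside the split of all listed genes, the share for ETV4 alone was thus higher in lincRNAs (61.8%) and antisense genes (42.3%) and lower in pseudogenes (2 of 20), with no test of these differences. As a share of members, lincRNAs made up 45.1% with ETV4 A, 14.5% with MED25 A and 19.4% with MED25 B, while pseudogenes made up 5.88%, 30.9% and 6.45%. ETV4 B listed no lincRNA, 3 antisense genes, 1 pseudogene and 1 coding gene. These shares are a description of the lists. How far genes of each type could pass the authors' listing minimum is not known.

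**Figure D2:**
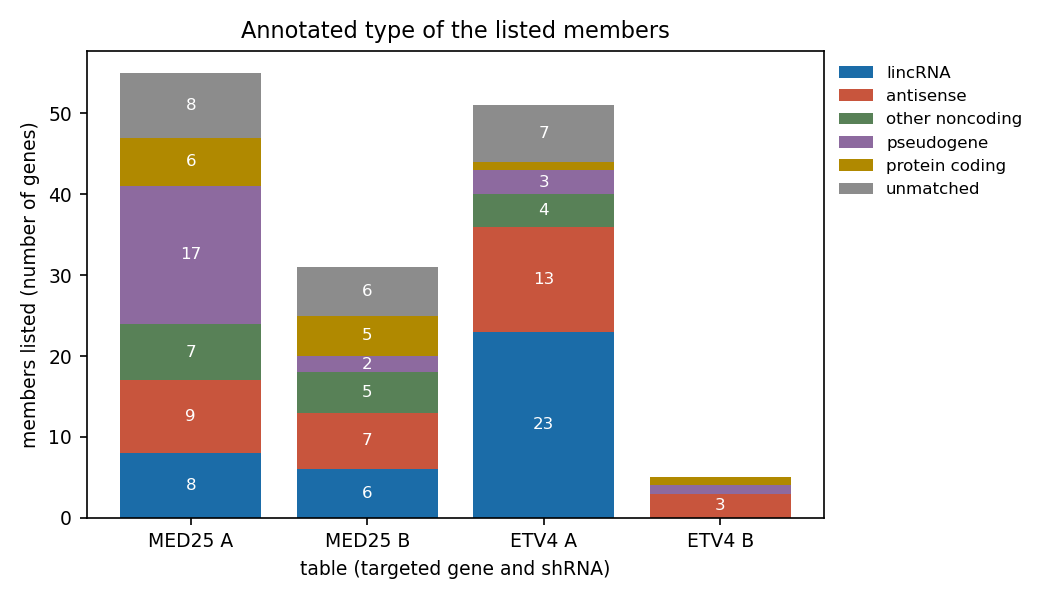
Bars give the number of members each table lists (vertical axis) by annotated type in GENCODE release 29, for the 4 tables on the horizontal axis. The lincRNA segment is largest with ETV4 A (23 genes) and the pseudogene segment with MED25 A (17 genes).

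Of the 118 members, 94 stood in 1 table, 24 in 2 and none in 3 or more. The last count follows from the rule, since the 3 genes it leaves out are those that stand in 3 or 4 tables. Of those in 2 tables, 13 were in both MED25 tables and 3 in both ETV4 tables. These tables differ in length, with 786 and 374 genes for MED25 and 495 and 98 for ETV4. The same counts over all listed genes were not made, so 13 and 3 are not compared. Tables of 1 target share their control libraries, so the values of these members are only set side by side below. The other 8 were listed for both targets, whose controls are separate libraries. They were 11.0% of the 73 members listed for MED25 and 15.1% of the 53 listed for ETV4. For all genes the corresponding shares were 14.2% of 1007 and 26.7% of 536, both above the members' shares. With the 3 left-out genes counted in, 11 were listed for both targets, which is 14.5% of 76 and 19.6% of 56, so the gap to all listed genes is made in part by the rule. By table, 4 of the 55 members with MED25 A were also listed for ETV4 (14.9% of all its genes were), all 4 with ETV4 A. Of the 31 with MED25 B, 4 were also listed for ETV4 (14.4% of all its genes), 2 with each shRNA. Seen from the ETV4 tables, these are 6 of the 51 members with ETV4 A (27.1% of all its genes) and 2 of the 5 with ETV4 B (39.8%).

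**Figure D3:**
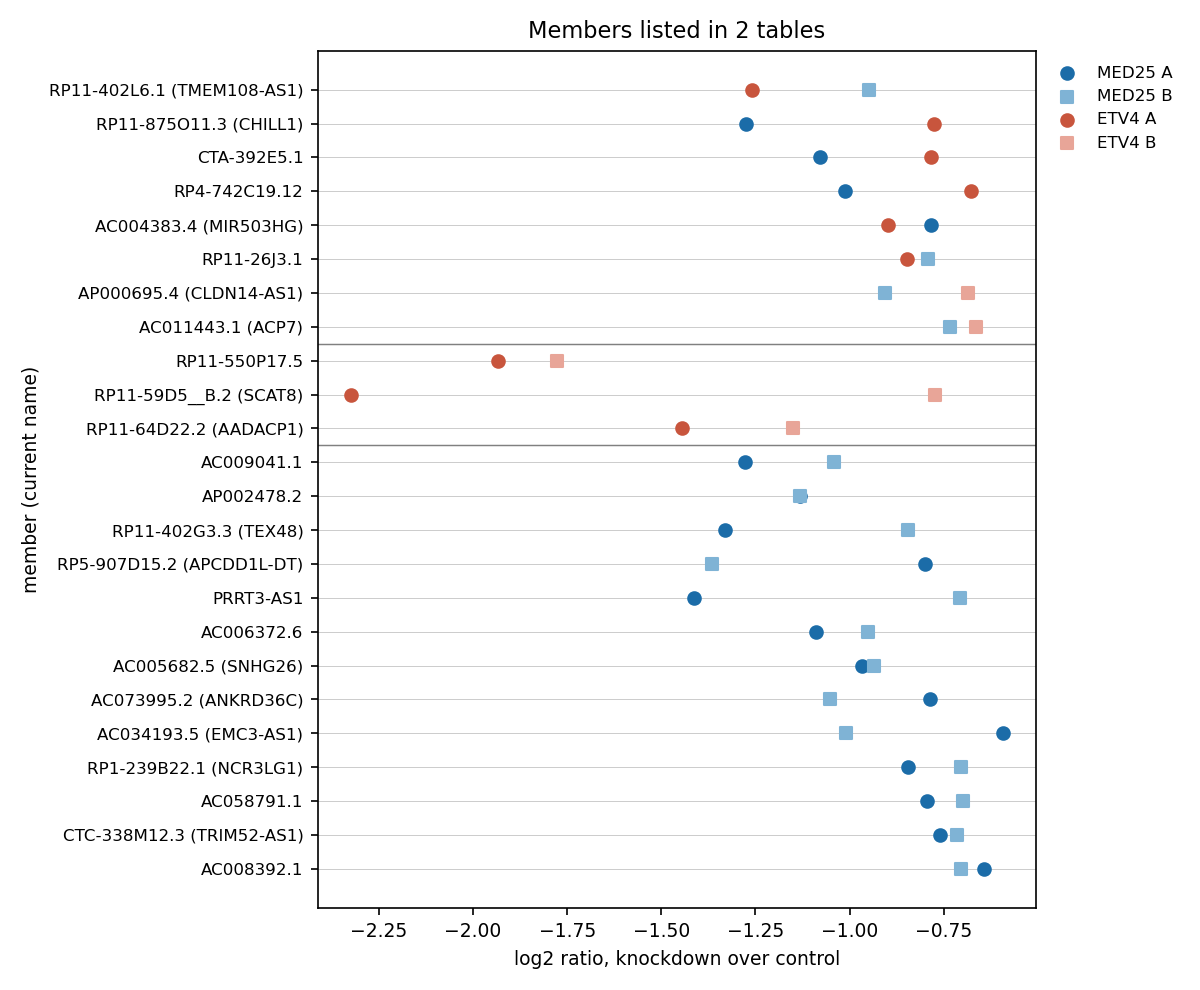
Log2 ratios of knockdown over control (horizontal axis) for the 24 members listed in 2 tables (vertical axis, with the current name in brackets). From the top, blocks hold members listed for both targets, for both ETV4 shRNAs and for both MED25 shRNAs, and circles and squares stand for shRNA A and B.

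The members listed for both targets comprised 3 antisense genes, 2 lincRNAs, a noncoding transcript, a pseudogene and a coding gene. TMEM108-AS1 (RP11-402L6.1, chromosome 3, antisense to the membrane protein gene TMEM108) was at −0.95 with MED25 B and −1.26 with ETV4 A in the authors' deposited tables. CLDN14-AS1 (AP000695.4, chromosome 21, antisense to the tight junction gene CLDN14) was at −0.90 with MED25 B and −0.69 with ETV4 B in the authors' deposited tables. CHILL1 (RP11-875O11.3, chromosome 8) was at −1.28 with MED25 A and −0.77 with ETV4 A in the authors' deposited tables. CHILL1 is typed as antisense, but no coding gene overlaps it in GENCODE release 29. Of these 3, TMEM108-AS1 alone had its lower value with ETV4.

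Of the lincRNAs, MIR503HG (AC004383.4, chromosome X), the host transcript of MIR503, was at −0.78 with MED25 A and −0.90 with ETV4 A in the authors' deposited tables. RP11-26J3.1 (chromosome 8) was at −0.79 with MED25 B and −0.85 with ETV4 A in the authors' deposited tables. CTA-392E5.1, a processed transcript on chromosome 8, was at −1.08 with MED25 A and −0.78 with ETV4 A in the authors' deposited tables. Of the 8 members listed for both targets, 3 lie on chromosome 8, which holds 6 of the 100 matched members. This was seen after the values were known, and chromosomes were not counted over all listed genes. The pseudogene RP4-742C19.12 (chromosome 22) was at −1.01 with MED25 A and −0.68 with ETV4 A in the authors' deposited tables. ACP7 (AC011443.1, chromosome 19), which encodes an acid phosphatase, was at −0.73 with MED25 B and −0.66 with ETV4 B in the authors' deposited tables. None of these 8 was lowered at least 2-fold for both targets, and the same count over all listed genes was not made. In single tables, 20.1% to 24.0% of all listed genes were lowered that far. Scores were below 50 in at least 1 of the tables for 7 of these 8, and CLDN14-AS1 was the exception, with 75.4 and 58.0 in the authors' deposited tables.

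RefSeq windows of 300 bases (250 before the annotated start to 50 after it, GRCh38.p14, a later build than the hg19 of the tables) were found by symbol for 54 members. They were searched on both strands for CGGAAG (an ETS core), TGANTCA (bound by AP-1) and TGATGNAA (a C/EBP-ATF element). CGGAAG was found in 11 of the 54 windows, or 20.4%, against 19.5% of all 35116 windows. For members listed with ETV4 A it was in 4 of 28 windows (14.3%), for those with ETV4 B in 1 of 2, with MED25 A in 5 of 23 (21.7%) and with MED25 B in 4 of 12 (33.3%). TGANTCA was found in 9 windows of members (16.7%, against 7.71% of all windows), namely those of LINC01812, LINC-PINT, LINC00973, GABPB1-AS1, OLMALINC, LINC00339, MANCR, LINC02288 and LASTR. TGATGNAA was found in 4 (7.41% against 3.62%), those of LNCAROD, NHSL1-AS1, LINC02288 and LINC01091. A match is a string of letters and not a measured binding site. These shares were not tested.

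The start regions of 3 members are shown here because these genes were listed for both targets, and that of SCAT8 further on. The window of MIR503HG lies at chrX:134546581-134546880 on the minus strand and has none of the 3 motifs. Capitals in it mark the mature sequences of hsa-miR-424-5p and hsa-miR-424-3p, found by their letters, so the annotated start of this host lies close to a microRNA gene.
MIR503HG: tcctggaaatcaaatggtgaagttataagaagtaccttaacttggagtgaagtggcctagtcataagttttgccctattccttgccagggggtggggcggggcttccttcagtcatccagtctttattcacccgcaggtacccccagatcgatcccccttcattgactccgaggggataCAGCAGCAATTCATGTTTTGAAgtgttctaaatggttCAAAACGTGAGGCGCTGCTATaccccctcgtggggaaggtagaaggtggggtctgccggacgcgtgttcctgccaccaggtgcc
The ACP7 window lies at chr19:39084118-39084417 on the plus strand, and its capitals mark the only match, CGGAAG on the opposite strand.
ACP7: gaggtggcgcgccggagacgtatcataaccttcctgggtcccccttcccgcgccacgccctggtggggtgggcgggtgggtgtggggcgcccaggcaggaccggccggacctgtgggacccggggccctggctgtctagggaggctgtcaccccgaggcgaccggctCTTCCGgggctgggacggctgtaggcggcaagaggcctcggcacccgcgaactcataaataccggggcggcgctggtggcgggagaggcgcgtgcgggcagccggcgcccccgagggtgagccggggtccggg
The TMEM108-AS1 window lies at chr3:133257072-133257371 on the minus strand and holds none of the 3 motifs.
TMEM108-AS1: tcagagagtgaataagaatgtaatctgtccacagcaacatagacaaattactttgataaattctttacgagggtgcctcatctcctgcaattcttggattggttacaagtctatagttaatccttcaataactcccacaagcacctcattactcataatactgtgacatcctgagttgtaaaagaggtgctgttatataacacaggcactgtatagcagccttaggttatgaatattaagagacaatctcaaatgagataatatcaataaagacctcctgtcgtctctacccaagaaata
In base composition they differ, with G and C at 75.0% in the ACP7 window, 52.3% in that of MIR503HG and 36.7% in that of TMEM108-AS1.

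The microRNA gene MIR503 lies inside the annotated body of MIR503HG. MIR424, on the same strand, does not lie wholly inside that body, and whether it overlaps the body in part was not recorded. Their mature 5p sequences are shown from RefSeq with the seed (bases 2 to 8) in capitals, because the seeds AGCAGCG and AGCAGCA differ at their last base.
hsa-miR-503-5p: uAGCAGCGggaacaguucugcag
hsa-miR-424-5p: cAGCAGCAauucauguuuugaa
The tables concern the host gene alone, and the levels of these microRNAs were not analysed here.

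The 2 largest decreases of any member were those of antisense genes with ETV4 A. SCAT8 (RP11-59D5__B.2, ENSG00000236345, chromosome 6) had the lowest value of all 495 genes listed with ETV4 A, at −2.32 or 19.96% of control, in the authors' deposited table. With ETV4 B, where more of the ETV4 transcript was lost, SCAT8 was at −0.77 or 58.5% of control in the authors' deposited table. It overlaps EYS, a photoreceptor matrix gene, on the opposite strand, and EYS was at −1.06 with ETV4 A in the authors' deposited table. Their annotated exons do not overlap. The start window of SCAT8 is shown because no listed gene was lower with ETV4 A. It lies at chr6:63806586-63806885 on the plus strand (GRCh38.p14), has 37.3% G and C and holds none of the 3 motifs.
SCAT8: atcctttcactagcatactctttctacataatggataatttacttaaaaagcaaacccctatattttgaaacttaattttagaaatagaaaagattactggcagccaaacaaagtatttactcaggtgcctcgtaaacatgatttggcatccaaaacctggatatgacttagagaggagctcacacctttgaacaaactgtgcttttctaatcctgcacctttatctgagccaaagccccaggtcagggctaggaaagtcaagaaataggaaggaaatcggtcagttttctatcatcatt

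RP11-550P17.5 (ENSG00000228560, chromosome 1) was nearly as low with both ETV4 shRNAs. It was at −1.93 with ETV4 A and −1.78 with ETV4 B in the authors' deposited tables, or 26.2% and 29.2% of control. Ranked by decrease it was number 11 of 495 and number 3 of 98. It overlaps the olfactory receptor gene OR10J1 on the opposite strand without sharing exons. Of the members with ETV4 B, RP11-550P17.5 thus had the largest decrease, and SCAT8 was nearer to the listing minimum.

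Other antisense members with ETV4 A lay between −0.99 and −0.63, apart from TMEM108-AS1. VIM-AS1, antisense to the vimentin gene, was at −0.99 and SLC26A5-AS1 (CTB-107G13.1) at −0.94 in the authors' deposited table. TAF1A-AS1 was at −0.81, LINC00659 at −0.72 and ZFAND2A-DT at −0.72 in the authors' deposited table. RP11-477D19.2, opposite to TIAM2, was the smallest of them at −0.63 in the authors' deposited table.

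PRRT3-AS1 (chromosome 3) had the largest decrease of the antisense genes with MED25 A. It was at −1.41 with MED25 A and −0.71 with MED25 B in the authors' deposited tables, while PRRT3, the coding gene on the opposite strand, was in no table. ST7-AS1, opposite to the gene ST7, was at −1.03 and NHSL1-AS1 (RP11-390P2.4) at −0.94 with MED25 A in the authors' deposited table. LINC00632, a locus known as the source of the circular RNA CDR1as, was at −0.83, PITPNA-AS1 at −0.78 and DNAJC9-AS1 at −0.73 with MED25 A in the authors' deposited table. These values describe the gene and not the circular RNA. GABPB1-AS1, which starts beside a subunit gene of the ETS-family factor GABP, was at −0.63 with the same shRNA in the authors' deposited table. With MED25 B, LNCTSI (AP000695.6) was at −1.10, CKMT2-AS1 at −0.73 and RP11-660L16.2, opposite to the cholesterol synthesis gene DHCR7, at −0.63 in the authors' deposited table.

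A coding gene lay on the opposite strand of 24 of the 26 antisense members, and exons of both overlapped for 19. If counting ignored strand, reads there cannot be told apart, so these values are uncertain. The coding partner was listed in any table for 8 members and in the same table as the member for 5. Overlap with another gene of the same table, on either strand, was counted over matched members of every type. With MED25 A 2 of 47 had it (4.26%, against 2.39% of all matched genes), and with MED25 B 2 of 25 (8.0% against 3.41%). With ETV4 A these were 2 of 44 (4.55% against 4.76%), and with ETV4 B 0 of 5 (6.12% of all). For antisense genes alone no such share was counted. ITGB2-AS1 was at −0.94 and the leukocyte integrin gene ITGB2 at −1.25 with ETV4 A in the authors' deposited table, and they share 303 exonic bases. CLDN14-AS1 at −0.90, LNCTSI at −1.10 and CLDN14 at −0.76 were listed together with MED25 B in the authors' deposited table. CLDN14-AS1 and CLDN14 share 132 exonic bases, and LNCTSI shares none with either. With ETV4 B, CLDN14-AS1 was listed without CLDN14. NHSL1 was at −0.64 beside NHSL1-AS1 with MED25 A in the authors' deposited table, with 24 exonic bases in common. SCAT8 with EYS is the remaining case, and with ETV4 B EYS was not listed.

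For 3 antisense members the coding partner was listed for the other target. PCDH9-AS1 was at −0.82 with ETV4 A, and the protocadherin gene PCDH9 at −1.003 with MED25 A, in the authors' deposited tables. ZBED3-AS1 was at −0.70 with ETV4 A, and the zinc finger gene ZBED3 at −1.09 with MED25 A, in the authors' deposited tables. SLC26A5-AS1 was at −0.94 with ETV4 A, while SLC26A5, the gene of the motor protein prestin, was at −0.59 with MED25 A in the authors' deposited tables. In none of these 3 loci did 1 table list both strands.

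Among lincRNAs, 23 were listed with ETV4 A, and in 7 the decrease was at least 2-fold. LINC00326 was at −1.42 and MANCR (RP11-117P22.1), named for its link to mitosis, at −1.37 in the authors' deposited table. RP11-221J22.2 was at −1.20 and LNCAROD (RP11-346D6.6), named as an activating regulator of DKK1, at −1.09 in the authors' deposited table. FZD4-DT (RP11-736K20.6) was at −1.03, RP11-6N13.1 at −1.02 and OLMALINC (LINC00263), named for oligodendrocyte maturation, at −1.002 in the authors' deposited table. The shorter list of ETV4 B, with 98 genes against 495 with ETV4 A, held no lincRNA member, and so none of these 7.

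The remaining lincRNAs with ETV4 A, besides MIR503HG and RP11-26J3.1, lay between −0.96 and −0.59. LINC01091 was at −0.96 and LINC00920 at −0.94 in the authors' deposited table. LINC02067, LINC02288, LINC02273, LINC01721 and RP11-705O24.1 were at −0.83, −0.82, −0.80, −0.79 and −0.78 in the authors' deposited table. Divergent transcripts made up 6 more. BMPR1B-DT was at −0.84, NUP50-DT at −0.82, FAM111A-DT at −0.74, SLC12A2-DT at −0.64, GMDS-DT at −0.64 and KLHL7-DT at −0.62 in the authors' deposited table. LASTR (RP13-463N16.6), named for its association with the splicing factor SART3, was the smallest lincRNA decrease at −0.59 in the authors' deposited table.

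The MED25 tables listed 13 lincRNAs in all. LINC-PINT (AC058791.1), a transcript known as p53-induced, was the 1 lincRNA in both, at −0.79 with MED25 A and −0.70 with MED25 B in the authors' deposited tables. With MED25 A, LINC01812 was at −1.13 and RP11-395G23.3 at −1.04 in the authors' deposited table. LINC01139 and LINC01806 were both at −0.83, LINC01515 at −0.81 and ZNF667-AS1, typed as lincRNA, at −0.61 with MED25 A in the authors' deposited table. LINC00973 was the largest lincRNA decrease with MED25 B, at −1.25 in the authors' deposited table. RP11-280G9.1 was at −0.80, LINC00243 at −0.79 and AC125807.2 at −0.77 with MED25 B in the authors' deposited table.

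Several divergent transcripts were listed together with the coding gene they start beside. For 26 of the 100 matched members, a coding gene on the opposite strand has an annotated start within 1 kb of theirs. For 4 of these members the coding gene was in the same table. The same was not counted over all listed genes. APCDD1L-DT (RP5-907D15.2, chromosome 20) and APCDD1L, a relative of a Wnt inhibitor gene, start 247 bases apart. The transcript was at −0.80 with MED25 A and −1.36 with MED25 B, and APCDD1L at −1.07 and −1.68, in the authors' deposited tables. APCDD1L-DT had the largest decrease of all members with MED25 B and the highest score, 462.0, in the authors' deposited table. Both genes were lower with MED25 B than with MED25 A.

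FZD4-DT lies 227 bases from FZD4, a Wnt receptor gene, head to head. They were at −1.03 and −1.12 with ETV4 A in the authors' deposited table, and FZD4 also at −0.94 with MED25 A, where FZD4-DT was not listed. BMPR1B-DT lies 434 bases from BMPR1B, a BMP receptor gene, and they were at −0.84 and −0.78 with ETV4 A in the authors' deposited table. NHSL1-AS1 with NHSL1, given above, is the remaining pair. For the other divergent transcripts named above (NUP50-DT, FAM111A-DT, SLC12A2-DT, GMDS-DT, KLHL7-DT and ZFAND2A-DT) the coding gene was in no table.

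On the same strand, 7 members lay within 10 kb of a listed gene without overlapping it. AC125807.2 (its name in GENCODE release 29) lies 763 bases from TEAD4, a Hippo pathway transcription factor gene, and they were at −0.77 and −0.89 with MED25 B in the authors' deposited table. RP11-26J3.1 lies 1508 bases from HEY1, a Notch effector gene. Where RP11-26J3.1 was at −0.79 and −0.85, HEY1 was at −1.27 with MED25 B and −0.79 with ETV4 A in the authors' deposited tables. HEY1 was also at −1.36 with MED25 A and −0.93 with ETV4 B in the authors' deposited tables, where RP11-26J3.1 was not listed. RP11-513I15.6 lies 2336 bases from the chromatin protein gene HMGA1, and they were at −0.73 and −1.17 with MED25 B in the authors' deposited table. RP11-477D19.2 lies 784 bases from TFB1M, a mitochondrial ribosomal RNA methyltransferase gene, which was at −0.60 with ETV4 A in the authors' deposited table. RP4-742C19.12 lies 3842 bases from APOBEC3G, a cytidine deaminase gene at −1.09 with ETV4 A in the authors' deposited table and not listed with MED25 A. FZD4-DT is also 2708 bases from PRSS23, a protease gene at −0.65 with ETV4 A and −0.59 with MED25 A in the authors' deposited tables. The processed pseudogene RPS4XP22 lies 8207 bases from ZNF562, which was at −0.64 with MED25 A in the authors' deposited table. Transcription running on from one gene into a member on the same strand was not tested.

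Counted over each table, 4 of 47 matched members with MED25 A had another listed gene overlapping or within 10 kb (8.51%, against 7.98% of all matched genes in that table). With MED25 B these were 6 of 25 (24.0% against 9.66%), with ETV4 A 7 of 44 (15.9% against 10.1%) and with ETV4 B 0 of 5 (6.12% of all). Of the 6 with MED25 B, 2 share the CLDN14 locus, and these shares are a description.

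**Figure D4:**
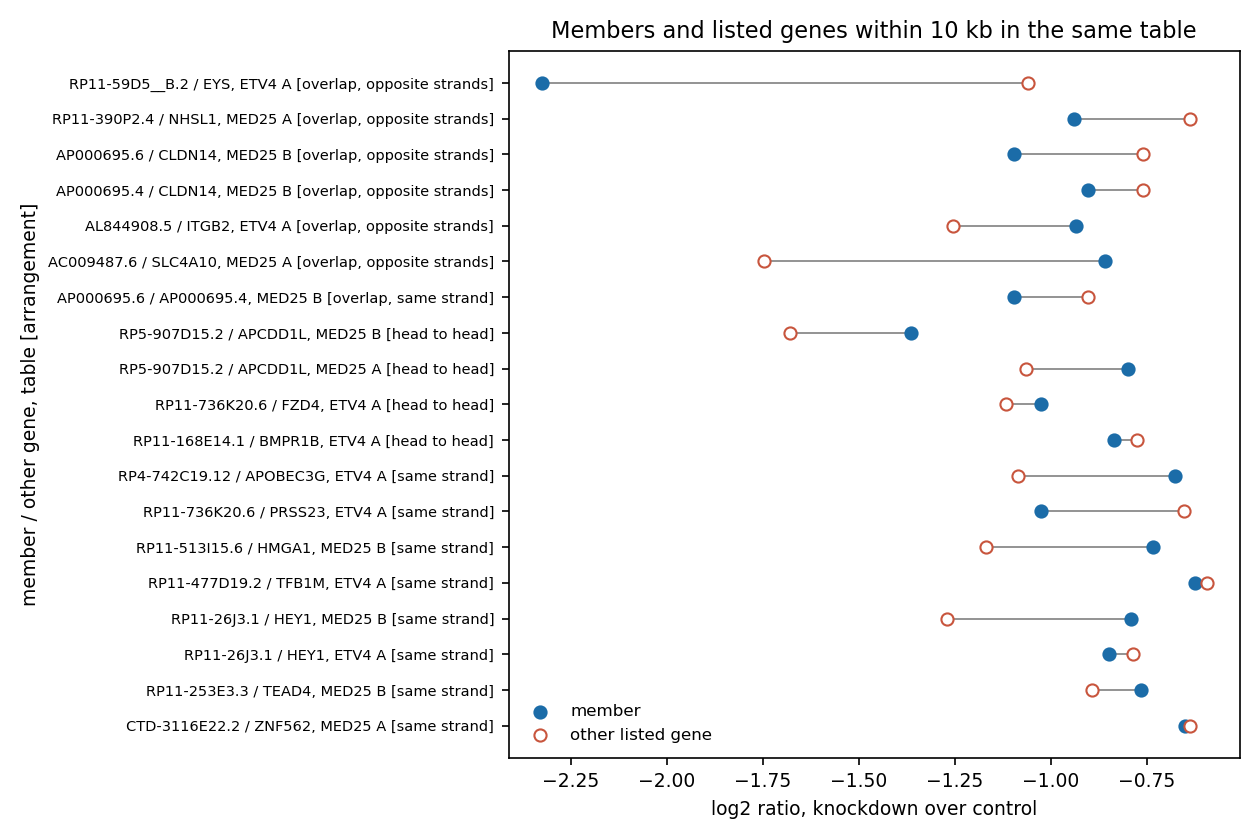
Filled points are members and open points the other listed gene that overlaps or lies within 10 kb, joined by a line, with log2 ratio of knockdown over control on the horizontal axis. Each line on the vertical axis is 1 pair in 1 table with its arrangement. Names are those of the tables: RP11-736K20.6 (FZD4-DT) and FZD4 sit close together at −1.03 and −1.12, and RP11-59D5__B.2 (SCAT8) and EYS far apart at −2.32 and −1.06.

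Of the 11 other noncoding members, 3 are snoRNA host genes, and ZFAS1 (listed as ZNFX1-AS1 and typed as antisense) is another. They were grouped after their values were seen. Such hosts are spliced transcripts whose introns give rise to snoRNAs that guide modification of ribosomal RNA. SNHG26 (AC005682.5) was at −0.97 with MED25 A and −0.93 with MED25 B in the authors' deposited tables. SNHG17 was at −0.81, SNHG29 (C17orf76-AS1) at −0.62 and ZFAS1 at −0.61 with MED25 A in the authors' deposited table. These 4 genes were in MED25 tables alone, as were 61.7% of all listed genes.

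TRIM52-AS1 (CTC-338M12.3) was at −0.76 with MED25 A and −0.71 with MED25 B, and AC006372.6 at −1.09 and −0.95, in the authors' deposited tables. LINC00339 was at −0.83, CCDC18-AS1 at −0.77 and AC074286.1 at −0.77 with ETV4 A in the authors' deposited table. With APCDD1L-DT, CTA-392E5.1 and RP11-513I15.6, given above, these make up the group.

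Pseudogenes were listed mostly with MED25 A, where 17 of the 20 stood. All 13 processed ones were in that table and in no other. It is the longest list, with 786 of the 1400 genes, and 14.9% of its genes were also listed for ETV4. How many of its genes stand in no other table was not counted. Of all 118 members, 94 stood in 1 table alone, so this is not read as a trait of processed pseudogenes. By blastn against coding transcripts of the same annotation, 9 of the 13 were closest to a ribosomal protein gene. Identities were from 90.2% to 100% over the whole pseudogene. How many of all annotated processed pseudogenes are closest to such a gene was not counted. Their log2 ratios lay between −1.01 and −0.64, with a median of −0.79, in the authors' deposited table. The ribosomal protein gene itself was in the MED25 A table for 4 of the 9. RPL12P15 (AC018737.6) was at −0.91 and RPL12 at −0.91, and RPL10P9 (CTC-575D19.1) at −0.90 and RPL10 at −0.64, in the authors' deposited table. RPS4XP14 (RP11-21K20.1) was at −0.89 and RPS4XP22 (CTD-3116E22.2) at −0.65, beside RPS4X at −0.61, in the authors' deposited table. RPL12 was also at −0.61 with MED25 B in the authors' deposited table, where RPL12P15 was not listed. The remaining 5 were RPSAP19 (RP11-556K13.1) at −1.01, RP11-864N7.2 (closest to RPS12) at −0.79, RP11-466H18.1 (RPL36A) at −0.68, RP3-417G15.1 (RPS24) at −0.66 and RP11-475C16.1 (RPL27A) at −0.64 in the authors' deposited table. For these the closest coding gene was not listed.

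How far copy and parent can be separated differs by gene, which 60 bases of coding sequence show for the least and the most alike of the 9, with differing bases in capitals. The sequences are from GENCODE release 29 transcripts.
RPS4XP22: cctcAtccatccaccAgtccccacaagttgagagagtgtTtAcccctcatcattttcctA
RPS4X: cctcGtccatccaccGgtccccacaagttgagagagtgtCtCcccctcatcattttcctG
RP11-466H18.1: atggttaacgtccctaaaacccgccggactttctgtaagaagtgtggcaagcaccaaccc
RPL36A: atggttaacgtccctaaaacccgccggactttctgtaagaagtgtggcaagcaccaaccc
The first pair differs at 5 of the 60 bases. The second pair is identical over the whole 321 bases of the pseudogene, so reads inside it cannot be placed, and its value is uncertain. The authors' handling of such reads was not given in the sources used here.

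Other processed pseudogenes with MED25 A were GPS2P1 (RP11-255J3.2) at −0.98, whose parent GPS2, a corepressor subunit gene, was at −0.65, in the authors' deposited table. AHCTF1P1 (AC009487.6), 99.0% identical to the nucleoporin gene AHCTF1, was at −0.86 in the authors' deposited table. It overlaps the bicarbonate transporter gene SLC4A10 on the opposite strand without sharing exons, and SLC4A10 was at −1.75 with MED25 A and −0.89 with ETV4 A in the authors' deposited tables. FCF1P2 (CTD-3211M3.1) was at −0.85, and AC005077.14, for which no coding match was found, at −1.34 with MED25 A in the authors' deposited table. MTCO3P12 (RP5-857K21.11), an unprocessed nuclear copy of mitochondrial DNA, was at −0.89, and MT-CO3, the cytochrome oxidase subunit gene with 98.2% identity to it, at −0.60 with MED25 A in the authors' deposited table.

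The 6 transcribed unprocessed pseudogenes, counting RP4-742C19.12, stood in tables of both targets. AADACP1 (RP11-64D22.2), a relative of the arylacetamide deacetylase gene AADAC, was at −1.45 with ETV4 A and −1.15 with ETV4 B in the authors' deposited tables. It had the largest decrease of the 3 pseudogene members with ETV4 A and was the only pseudogene listed with ETV4 B. EMC3-AS1 (AC034193.5) was at −0.59 with MED25 A and −1.01 with MED25 B, in the authors' deposited tables. It lies 32105 bases from PRRT3-AS1, and the order of their decreases was reversed between the shRNAs. GTF2IP7 (AC005077.12) was at −0.98 with ETV4 A, LINC00888 (RP11-393B14.1) at −0.77 with MED25 A and FAM86JP (RP11-666A20.1) at −0.68 with MED25 B in the authors' deposited tables.

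The rule on symbols also took in 9 genes that GENCODE release 29 types as protein coding. ANKRD36C (AC073995.2), an ankyrin repeat gene, was at −0.79 with MED25 A and −1.05 with MED25 B in the authors' deposited tables. TEX48 (RP11-402G3.3), a testis-expressed gene, was at −1.33 and −0.84, and NCR3LG1 (RP1-239B22.1), which encodes the natural killer cell ligand B7-H6, at −0.84 and −0.70, in the authors' deposited tables. FNDC10 (RP11-345P4.5), a fibronectin domain gene, was at −1.21 with MED25 B in the authors' deposited table. RP11-286H14.4 was at −0.72, PIGBOS1 (AC018926.1), a mitochondrial microprotein gene, at −0.63 and the kinase gene MAP3K20 (AC013461.1) at −0.60 with MED25 A in the authors' deposited table. FAM228B (AC008073.6) was at −0.59 with ETV4 A in the authors' deposited table. With ACP7, 8 of the 9 were in a MED25 table and 2 in an ETV4 table, beside 1007 and 536 of all 1400 listed genes.

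The 18 members without a match have identifiers that are not in the later annotation, so no type is given. AP000783.2 (ENSG00000255414) had the largest decrease of all members with MED25 A, at −1.57 or 33.7% of control, in the authors' deposited table. AC009041.1 was at −1.28 with MED25 A and −1.04 with MED25 B, AP002478.2 at −1.13 in both and AC008392.1 at −0.64 and −0.70 in the authors' deposited tables. AC073321.5 was at −1.03 with MED25 A in the authors' deposited table. RP11-488P3.1 was at −1.25, AC097470.1 at −1.24 and AC078953.1 at −1.01 with ETV4 A in the authors' deposited table. The other 10 lay between −0.97 and −0.63. No unmatched member was listed for both targets, beside 10.2% of all 1400 listed genes and 4 of all 50 unmatched ones.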

How the data were processed

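RNA from 17 PC3 libraries was sequenced. The submitters' processing notes name Novoalign 3.08.02 and the build hg19. The counter, its use of strand, the annotation, the scaling and the test were not given in the sources used here. Per the file headers, the authors deposited a log2 ratio and an adjusted p for each gene of 4 comparisons, the latter on a scale not stated. It was used as a score, as deposited by the authors, to describe and filter genes. MED25 ratios were turned round, so that all are knockdown over control. This direction was read from the order of library numbers in the file headers and from the sign of the targeted genes. No library-level values were analysed here, so depth per library is unknown, replicates could not be compared, and no test was run. The labels do not say whether libraries of a group were grown apart.

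Types, exons and neighbours came from GENCODE release 29 by Ensembl identifier (1350 of 1400 genes matched). It is on GRCh38, so no coordinates of listed genes are given, and distances are those of that annotation. Pseudogene transcripts were compared with coding transcripts of other loci by blastn 2.17.0+ (plus strand). Promoter windows and microRNAs are from RefSeq (GRCh38.p14), matched by symbol. Computations used Python 3.11.15, pandas 2.3.3, numpy 2.4.6 and matplotlib 3.10.9. The symbol rule, type classes and motif search were tested on made-up cases.

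The members, lists and motifs were chosen with earlier results of these data known. Named genes were the targets, members in 2 or more tables, the 10 largest decreases of members per table, members overlapped by a listed gene, members named for a host gene and members with a known role. Others, named to account for each group, were picked after their values were known. Alternatives were a 2-fold minimum, a score of at least 50, other rules for members and other neighbour windows. Apart from the unmatched members given only by their range, 1 member is counted but not reported by name here.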

Additional observations from a re-analysis of the deposited data

How the results depend on the processing

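None of the 94 alternative values changed direction, as every listed gene was lower. Counts within 1.5 times the reported one, and medians within 1 SD over members, made up 53 of them. Among genes lowered at least 2-fold, the members were 15 and 8 with MED25 A and B, and 14 and 2 with ETV4 A and B, with medians of −1.13, −1.11, −1.24 and −1.46. They then held 2, 1 and 7 lincRNAs with MED25 A, MED25 B and ETV4 A, 3, 1, 3 and 1 antisense genes over the 4 tables, and 3, 1 and 1 pseudogenes with MED25 A, MED25 B and ETV4 A. With scores of at least 50, 16, 12, 19 and 2 members were left, and the median with MED25 B was −1.05. These held 2, 2 and 10 lincRNAs, 2, 3 and 5 antisense genes and 3, 1 and 1 pseudogenes with MED25 A, MED25 B and ETV4 A, and 0 pseudogenes with ETV4 B. Members at least 2-fold lower then numbered 5 with MED25 A and 1 with ETV4 B. Members listed for both targets fell from 8 to 0 under the 2-fold minimum and to 1, CLDN14-AS1, under the score minimum. Both minimums leave fewer genes. Counting in the genes that the rule leaves out, an alternative chosen after seeing the data, raised it to 11. With members of a noncoding type alone, MED25 B kept 20, of which 4 were at least 2-fold lower. Over all listed genes of a noncoding type, 4 were at least 2-fold lower with ETV4 B. A window of 50 kb raised the members with a listed neighbour to 10 with MED25 A. Leaving out members that overlap a listed gene on the opposite strand moved no value beyond these bounds. No paired analysis was possible because the files hold no values per library, and for the same reason no replicate could be left out. Values near 1.5-fold rest on unknown depth.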
